A study of Mus musculus with 10 samples.

Results

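The nitric oxide synthases Nos1, Nos2 and Nos3 were followed here together with related genes, among them Nos1ap, the protein kinases Prkg1 and Prkg2, and the dimethylarginine hydrolases Ddah1 and Ddah2. The family of 10 genes was chosen by name, and every non-control probe annotated with 1 of the symbols, or with a transcript of the gene, was taken. This found 11 probes for 9 of the 10 genes, out of 18539 genes with a named probe on the array. Nos1ap matched no probe and has no value. Values are described for 7 of the 9 genes found, with 9 probes, and counts over the family cover all 9 genes.

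The study asked how a fish oil diet rich in omega-3 fatty acids changes gene expression in the mouse brain. Male C57BL/6J mice received a fish oil diet (FD) or a standard lab diet (SD) from 3 weeks of age for about 20 weeks, and RNA of the left hemibrain was taken at 5 months. On each of 10 Agilent whole mouse genome arrays, hemibrain RNA of 1 animal carried the dye Cy5, and a second RNA carried the dye Cy3. The labels contradict each other on both channels. Every Cy5 sample is tagged as FD, while the descriptions call the same arrays controls, and the study's methods count 4 FD and 3 SD arrays. The Cy3 sample is tagged as pooled hemibrain of SD mice, while the labelling protocol names a purchased reference RNA. No array could therefore be placed in a diet group, and no diet comparison was made. The arrays are not replicates of a stated group, so values are given array by array, or as the lowest, the median and the highest, and the number of arrays limits their precision.

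Nitric oxide is a gas that cells make from arginine and that diffuses to its targets. In the brain the neuronal enzyme Nos1 makes it next to glutamate receptors, the endothelial enzyme Nos3 makes it in vessel walls, and the inducible enzyme Nos2 appears mainly in inflammation. Nitric oxide switches on soluble guanylyl cyclase, whose product cyclic GMP activates the protein kinases Prkg1 and Prkg2. The Ddah enzymes break down methylated arginines that inhibit the synthases.

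Each value below is a log2 ratio of the Cy5 to the Cy3 processed signal of a probe on an array, so 1 is a 2-fold higher Cy5 signal and -1 a 2-fold lower one. A probe is called well above background in a channel by the scanner software's own flag. Array C10-434 was dim: 49.8% of its probes were well above background in Cy5, against 68.2% to 76.9% on the other 9 arrays. In Cy3 the same array had 61.9%, against 70.3% to 79.1%. Where it decides a call or a relation, values are given with and without it.

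The tissue label was checked against marker genes. Of the 8 neuron markers, 7 had a value on every array, and all 7 were at least 2-fold higher in Cy5 on every array. The same held for 6 of 7 astrocyte markers and 7 of 7 oligodendrocyte markers, with Syt1, Slc1a2 and Mbp the brightest of the 3 lists in Cy5. Some markers of the Cy3 RNA are not those of a pool of male hemibrains. Xist, which is transcribed in female cells, had a median Cy3 signal of 14503 and was well above background in Cy3 on 10 arrays and in Cy5 on 0. The Y-linked genes Ddx3y, Kdm5d and Eif2s3y were well above background in Cy3 on 10 arrays as well, so the Cy3 RNA gave both kinds of signal. Uty, also Y-linked, was well above background in Cy3 on only 4 arrays and in Cy5 on 1. All 7 proliferation markers, of which Plk1 was brightest in Cy5, were at least 2-fold lower in Cy5 on every array, with a list median of -5.57. The ratios of the synthases and related enzymes below are thus ratios to an RNA whose source the labels do not settle. Fewer cells of a type and less RNA per cell cannot be told apart in any of them.

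A gene was called higher or lower in Cy5 when its brightest probe was at least 2-fold higher, or lower, on every array and was well above background in at least 1 channel on each. By this rule 1 of the 9 genes, Nos3, was higher, against 14.5% of the 17659 genes with a value on every array. Prkg2 and Ddah2, 2 of the 9, were lower, against 15.9%. Without C10-434 the count of higher genes was 2, against 16.5% of genes, and Prkg2 and Ddah2 were again the lower ones, against 16.5%. With 9 genes, counts of 1 and 2 lie near these shares and under this rule do not set the family apart. In Cy5, 4 of the 9 genes were well above background on every array, against 65.6% of all genes, and 6 were on the 9 arrays without C10-434, against 76.6%. In Cy3, 4 were well above background on every array, against 73.2%, and in both channels 4, against 61.3%. By the software's other flag, for positive and significant signals, 7 of the 9 passed in Cy5 on every array, against 79.0% of all genes.

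**Figure D1:**
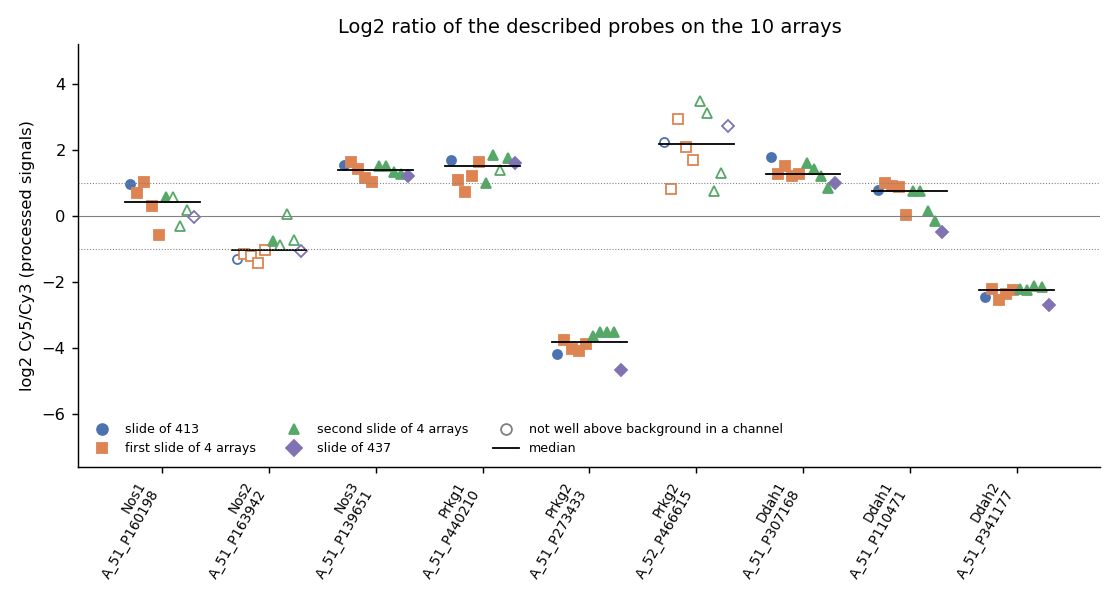
Log2 ratio of Cy5 to Cy3 for each of the 9 described probes on each of the 10 arrays, coloured by slide, with open symbols where the probe was not well above background in a channel and a bar at the median. Nos3 lies above 1 on every array, Ddah2 and the brighter Prkg2 probe lie below -1, and the other Prkg2 probe lies above 0.

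Nos1 makes nitric oxide in neurons, and its probe A_51_P160198 is printed on 10 spots of each array. Its log2 ratio was 0.96 on C10-413, 0.68 on C10-415, 1.03 on C10-416, 0.28 on C10-417, -0.59 on C10-423, 0.57 on C10-424, 0.57 on C10-425, -0.30 on C10-434, 0.18 on C10-435 and -0.05 on C10-437. It was thus highest on C10-416 and C10-413 and below 0 on 3 arrays, of which C10-423 was the lowest. The median was 0.42 and the range 1.62, and without C10-434 they were 0.57 and 1.62. Among all genes 77.9% had a smaller range over the 10 arrays, and 83.4% did on the 9.

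The spread of Nos1 lay in the Cy5 channel. On the 9 arrays without C10-434 its Cy5 signal ran from 54.3 to 160, a log2 range of 1.56, while its Cy3 signal ran from 65.4 to 86.5, a log2 range of 0.40. These signals are close to background: Nos1 was well above it in Cy5 on 8 arrays and in Cy3 on 7, and on C10-434 in neither channel. The SD of the log2 ratio over the 10 spots had a median of 0.28 and ran from 0.16 to 0.38. With the arrays put in order of their ratio, 1 of the 9 steps between neighbours was larger than the SD of single spots. That SD measures the spots and not the animals. Each value is a mean of 10 spots, which varies less than single spots, so the steps are not shown to lie within spot noise. After background subtraction with an added offset, which pulls dim probes towards 0, and loess, the range fell to 0.59, and after the normexp correction and loess to 0.42, with C10-423 still lowest in both.

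Nos3, the synthase of vessel walls, also sits on 10 spots, and its values were tighter. Its log2 ratio was 1.53 on C10-413, 1.62 on C10-415, 1.42 on C10-416, 1.14 on C10-417, 1.02 on C10-423, 1.49 on C10-424, 1.51 on C10-425, 1.32 on C10-434, 1.27 on C10-435 and 1.21 on C10-437. All arrays were on 1 side, and as for Nos1 the lowest was C10-423. The median of 1.37 is a 2.58-fold higher Cy5 signal, and the range was 0.61, with 16.5% of genes having a smaller one. Nos3 was well above background in both channels on all 10 arrays, with a Cy5 signal of 672 to 2136. Its spot SD ran from 0.05 to 0.14. Under the normexp correction with loess the median was 1.06, but the value on C10-413 dropped to 0.09 and Nos3 was no longer called. On that array Prkg1 and the brighter Ddah1 probe also had their lowest values under this correction, 0.02 and 0.51. The brighter Prkg2 probe and Ddah2 had their highest there, -1.01 and -1.50, so ratios of either sign were smaller in size on it. With this correction Nos3 ran from 0.09 to 1.34 and Nos1 from -0.12 to 0.31, so Nos3 was no longer the tighter, with C10-413 giving its low end. After background subtraction with an added offset and loess their spreads were close, 1.11 to 1.67 for Nos3 and -0.13 to 0.46 for Nos1.

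Nos2, the inducible synthase, gave a signal near background. Its measured log2 ratio ran from -1.42 on C10-417 to 0.06 on C10-434, and on the other 9 arrays it was at most -0.74. In Cy5 it was well above background on 2 arrays, C10-424 and C10-435, and in Cy3 on 7. The spot SD reached 0.87 on C10-435. Against the lowest Cy5 signal that passed the flag on each array, the ratio is a bound of at least 1.01-fold lower in Cy5 on the mean over arrays, so no size can be read from it.

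**Figure D2:**
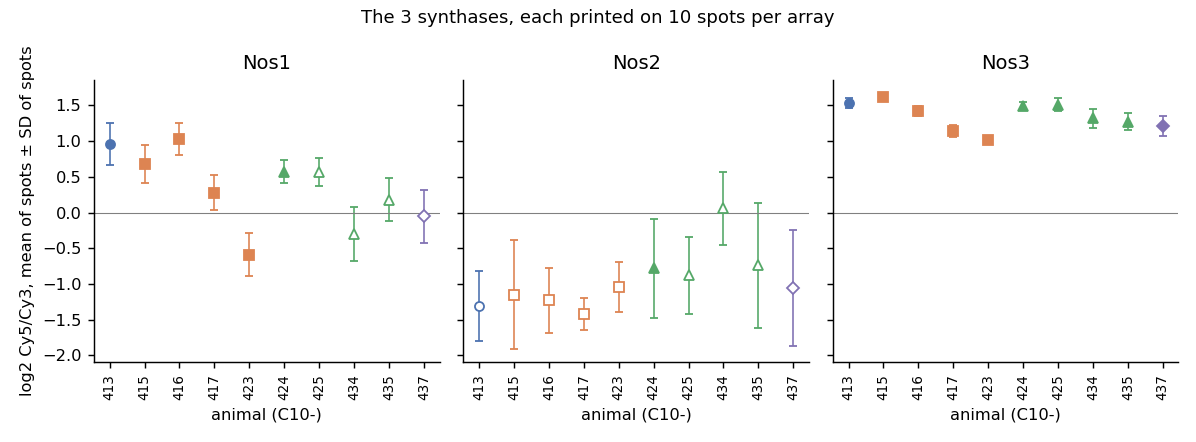
Log2 ratio of Nos1, Nos2 and Nos3 on each array (animal number on the axis) as the mean of 10 spots, with bars of 1 SD over those spots; colours mark the slides and open symbols a channel not well above background. Nos3 stays between 1.02 and 1.62 with short bars, Nos1 spreads from -0.59 to 1.03, and the bars of Nos2 overlap along the axis.

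Prkg1, a cyclic GMP-dependent kinase, had log2 ratios from 0.73 on C10-416 to 1.85 on C10-425, with a median of 1.49. It was at least 2-fold higher on 8 of the 10 arrays and above 0 on all, and on C10-434 it was well above background in neither channel. C10-416, where Nos1 was highest, was its lowest array. Its Cy5 signal ran from 113 to 530 and its Cy3 signal from 43.2 to 209. The median log2 ratio of Prkg1 fell to 0.53 after the normexp correction and loess. After background subtraction with an added offset and loess it was 0.94.

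The probes of the related kinase Prkg2 gave different signs. The brighter, A_51_P273433, had log2 ratios from -4.68 on C10-437 to -3.51 on C10-435, with a median of -3.83, a 14.2-fold lower Cy5 signal. It was well above background in both channels on all 10 arrays, with a Cy3 signal of 8754 to 21914. The dimmer, A_52_P466615, had measured ratios from 0.75 on C10-434 to 3.48 on C10-424. It was well above background in Cy5 on 8 arrays and in Cy3 on 0, so its ratio is a bound: at least 2.66-fold higher in Cy5 on the mean over arrays. This bound compares the channels after further scaling and is open to dye bias, since no array had the dyes swapped. On C10-415 and C10-434 the dimmer probe was above background in neither channel, and on the other 8 arrays its measured ratio was above 0 where that of the brighter probe was below 0. The call of Prkg2 as lower therefore rests on the brighter probe alone, and the mean of both probes did not pass the rule. Which transcripts each probe reads was not tested.

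**Figure D3:**
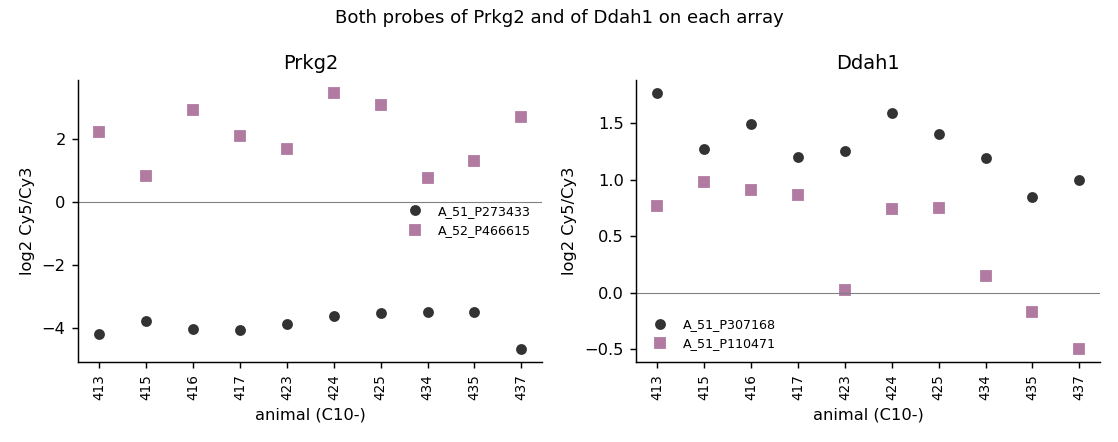
Log2 ratio of both probes of Prkg2 and of Ddah1 on each array (animal number on the axis). The Prkg2 probes lie on opposite sides of 0, with the dimmer one not above background in Cy3 on any array, and the Ddah1 probes differ by 0.29 to 1.51.

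**Figure D4:**
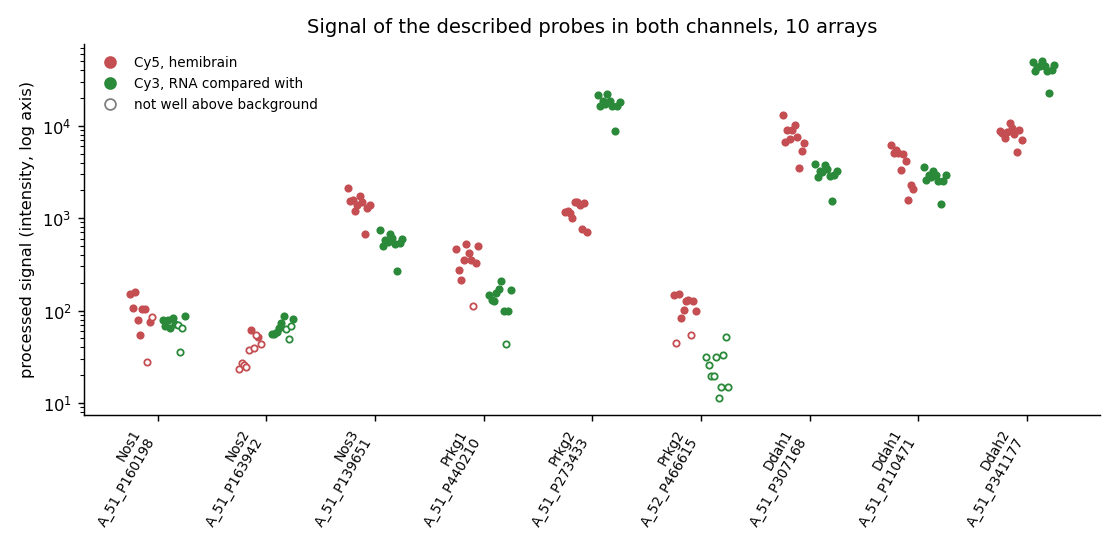
Processed signal (intensity, log axis) of each of the 9 described probes in Cy5 and in Cy3 on the 10 arrays, with open circles where the signal was not well above background. Nos2 is open on most arrays in Cy5, the dimmer Prkg2 probe is open throughout in Cy3, and levels of different probes are not comparable.

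Ddah1, which clears inhibitors of the synthases, also has a pair of probes that differ in ratio. The brighter, A_51_P307168, had log2 ratios from 0.85 on C10-435 to 1.77 on C10-413, with a median of 1.26, and was at least 2-fold higher on 9 of the 10 arrays. Without C10-435 it would be called higher. The other, A_51_P110471, ran from -0.50 on C10-437 to 0.98 on C10-415, with a median of 0.74, and was below 0 on 2 arrays. The brighter probe was higher on all 10 arrays, by 0.29 on C10-415 to 1.51 on C10-437, so the size of the Ddah1 ratio depends on the probe. Over the 10 arrays they had a Pearson r of 0.70 and a Spearman rho of 0.60. The 4 lowest arrays of the dimmer probe, C10-423, C10-434, C10-435 and C10-437, are also the 4 lowest of Nos1, while C10-423 is not among the 4 lowest of the brighter probe. On 3 of these 4 arrays, all but C10-423, Nos1 was not well above background in at least 1 channel.

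Ddah2, the sister enzyme, went the other way. Its log2 ratio ran from -2.72 on C10-437 to -2.14 on C10-434, with a median of -2.24, a 4.73-fold lower Cy5 signal. Its range of 0.59 was among the narrow ones, with 14.8% of genes narrower. Both channels were well above background on all 10 arrays, with Cy5 signals of 5176 to 10686 and Cy3 signals of 22753 to 50340. Ddah2 and the brighter Ddah1 probe thus stood on opposite sides of 0 on every array, while the dimmer Ddah1 probe shared the sign of Ddah2 on C10-435 and C10-437.

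The upstream sequences of Nos1, Ddah1 and Ddah2 are shown to set the neuronal synthase beside the hydrolases, of which Ddah2 differs in sign from the brighter Ddah1 probe. RefSeq promoter entries were present for 5 of the 10 genes: Nos1, Nos1ap, Prkg1, Ddah1 and Ddah2. Each sequence is the 250 bases before the annotated start on the + strand of GRCm38.p6, at chr5:117866589-117866838 for Nos1, chr3:145758442-145758691 for Ddah1 and chr17:35058785-35059034 for Ddah2. Capitals mark the GC box and the cyclic AMP response element half-site, on either strand.
Nos1: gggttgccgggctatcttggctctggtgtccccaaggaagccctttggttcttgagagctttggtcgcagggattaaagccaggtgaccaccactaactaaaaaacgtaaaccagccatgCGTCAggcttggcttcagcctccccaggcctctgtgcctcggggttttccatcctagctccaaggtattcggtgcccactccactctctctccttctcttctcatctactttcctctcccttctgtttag
Ddah1: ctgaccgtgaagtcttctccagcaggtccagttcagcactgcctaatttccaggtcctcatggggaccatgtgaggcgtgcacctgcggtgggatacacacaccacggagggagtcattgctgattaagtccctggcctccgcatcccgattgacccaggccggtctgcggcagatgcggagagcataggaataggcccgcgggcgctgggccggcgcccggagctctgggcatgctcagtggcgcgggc
Ddah2: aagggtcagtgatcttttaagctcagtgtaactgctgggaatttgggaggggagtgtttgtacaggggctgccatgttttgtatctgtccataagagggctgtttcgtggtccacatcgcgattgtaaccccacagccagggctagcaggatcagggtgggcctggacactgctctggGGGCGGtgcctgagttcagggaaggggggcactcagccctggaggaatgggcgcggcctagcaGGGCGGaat
The motifs searched on both strands were the GC box GGGCGG, held by 32.7% of 32851 RefSeq promoters of the same length, the half-site TGACG, held by 17.8%, CCAAT, held by 33.8%, TATAAA, held by 12.4%, and the E-box CANNTG, held by 66.2%. The Nos1 stretch held 1 half-site and 1 E-box, the Ddah1 stretch held 3 E-boxes and the Ddah2 stretch held 2 GC boxes. No motif was found in both the Nos1 and the Ddah1 stretch apart from the E-box. GC content was 54.0% for Nos1, 64.0% for Ddah1 and 58.0% for Ddah2, against a median of 52.4% over all promoters. The Ddah1 stretch held 17 CG pairs, against a median of 6. A match describes letters and shows no binding.

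The genes most like Nos1 over the arrays were sought among 10533 genes that had a value, and were well above background in both channels, on every array. Pearson's r served as a description with no p, since the arrays belong to no stated group, and each slide holds too few arrays for an r of its own. Ctsd was most like Nos1 with an r of 0.99 and a Spearman rho of 0.96, and its r was 0.97 without C10-423 and C10-434, the arrays farthest from the Nos1 median. Cuta followed with 0.98, Htt with 0.97, Dennd6b with 0.96 and Arsg with 0.96. On the 9 arrays without C10-434 the closest were Ctsd, Coq8b, Cuta, Pdzd7 and Map4k2, with r from 0.97 to 0.99. Such likeness was common: 937 genes had an r above 0.8 over 10 arrays and 1182 over 9, so the pattern of Nos1 is shared widely on the array.

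Other described probes were set beside Nos1 in the same way. Nos3 had an r of 0.79 and a rho of 0.76 over 10 arrays, and an r of 0.84 without C10-434. The dimmer Ddah1 probe had an r of 0.74 and a rho of 0.78, and again 0.74 without C10-434. The brighter Ddah1 probe had an r of 0.62 and a rho of 0.72, and again 0.62 without C10-434. Without the arrays farthest from the Nos1 median, C10-423 and C10-434, the r was 0.72 for Nos3, 0.78 for the dimmer and 0.83 for the brighter Ddah1 probe, so the order of the 3 changes with the arrays used. Nos2 had an r of -0.48, and of -0.25 without C10-434. Prkg1 had -0.40 and -0.44, Ddah2 -0.26 and -0.12, the brighter Prkg2 probe -0.06 and 0.10, and the dimmer 0.41 and 0.26. When C10-423 and C10-437 were left out besides C10-434, Ddah2 had -0.72 and the brighter Prkg2 probe -0.53, so their r values are not stable over the arrays. Prkg1 had -0.36 on these arrays, close to its other values, and Nos3 had 0.64.

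Each of 14 marker lists was also set beside Nos1, as the median departure of its genes from their own medians. The microglia list had an r of 0.85 and a rho of 0.91 over 10 arrays, and 0.87 and 0.90 without C10-434. The oligodendrocyte list had an r of 0.38 and a rho of 0.49 over 10 arrays, but 0.85 and 0.90 without C10-434. The neuron list went from -0.17 to 0.62 and the list of Nos1 interneuron markers from -0.01 to 0.24, so these relations depend on the dim array. They depend on other arrays too: without C10-423 and C10-437 as well, the r was -0.12 for the neuron list, -0.35 for the Nos1 interneuron list, 0.63 for the oligodendrocyte list and 0.78 for the microglia list. Of the 6 microglia markers with a value on every array, 3 were called higher and 0 lower, and their summed Cy5 signal was 0.00887% of that of all genes on C10-423 and 0.0138% on C10-413. All 7 genes of that list were well above background in Cy5 on every array, and the brightest, Trem2, has no ratio on C10-413 and C10-425. The part of any cell type in the spread of Nos1 was not tested.

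The slides with 4 arrays each were compared. Position on the slide, at which 2 or 3 arrays share a place, was not tested. The first slide holds C10-415, C10-416, C10-417 and C10-423, and the second holds C10-424, C10-425, C10-434 and C10-435, so slide and animal cannot be told apart. With limma over 41122 probes, 31 differed between the slides, which is 0.0754%, and none of the 9 described probes was among them. Their adjusted p ran from 0.371 to 0.992, and 2 had an unadjusted p under 0.05, as did 4072 of the 41122 probes. The brighter Prkg2 probe was higher by 0.41 (SE 0.15) on the second slide with an adjusted p of 0.371. Nos2, the other of the 2, had an adjusted p of 0.389, but its Cy5 signal was well above background on only 2 of the 8 arrays, so no size of the difference is given. Nos1 differed by -0.10 (SE 0.35) with an adjusted p of 0.992, and its lowest and its highest array, C10-423 and C10-416, lie on the same slide. The count of 31 fell to 0 to 18 when any 1 of the 8 arrays was left out, where fewer arrays were compared. It was 71 among probes well above background in Cy5, 0 after background subtraction with a floor and loess, and 2692 with the Cy5 signal alone.

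The wider pathway was described with 10 lists of 67 genes, of which 65 were found and 60 had a value on every array. Of those 60, 22 (36.7%) were called higher and 10 (16.7%) lower, against 14.5% and 15.9% of all genes. The median log2 ratio of the pathway genes was 0.70, against 0.05 over all genes. Upstream of Nos1, the NMDA receptor genes Grin1 and Grin2b were called higher, with medians of 2.76 and 4.62. Both, like Dlg2 and Prmt8 below, were well above background in Cy3 on 9 arrays, so their medians include an array without such a signal. Grin2a was well above background in Cy5 on 9 arrays and in Cy3 on 0, so its ratio is a bound, at least 6.77-fold higher in Cy5. Of the 10 synthase partners with a value on every array, 5 were called higher and 1 lower. Dlg2, a scaffold that holds Nos1 at the synapse, had a median of 5.58, and Cav1, which binds Nos3 at the membrane, had -4.08. Nos3 and its inhibitor Cav1 thus had opposite signs on every array.

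Tetrahydrobiopterin is the cofactor of all the synthases, and of the 6 genes of its list with a value on every array 0 were called higher and 3 lower. Gchfr had a median of -3.86 and the rate-limiting enzyme Gch1 of -3.27, with Gch1 well above background in Cy5 on 9 arrays. Qdpr, which regenerates the cofactor, had 2.02 but lacked a value on 1 array. Downstream, the cyclase subunits Gucy1a1 and Gucy1b1, which receive the nitric oxide, were called higher, but in Cy3 they were well above background on only 5 and 8 arrays, so no exact ratio is given. Gucy1b2 had a median of -0.13. Of the 7 cyclic GMP phosphodiesterases 4 were called higher, with Pde1a highest at 5.29, and Pde5a was lower. In Cy5 Pde5a was well above background on 1 array, so its ratio is a bound, at least 2.93-fold lower. Of the 6 kinase substrates found, 4 were higher, among them Kcnma1, which was well above background in Cy3 on only 6 arrays, and Vasp was lower at -1.30.

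Around arginine and the Ddah enzymes the signs were mixed. In arginine transport and recycling 0 of 5 genes were called higher and 1 lower, from Slc7a1 at -1.62 to Slc7a3 at 0.68. Of 7 genes of ornithine and polyamine metabolism with a value on every array 1 was higher, Gatm at 2.63, and 2 were lower, with Azin1 lowest at -2.20. Some of the protein arginine methyltransferases make the methylated arginines that Ddah1 and Ddah2 degrade. Of this list 7 had a value on every array, of which 2 were higher and 0 lower, from Prmt5 at -0.99 to Prmt8 at 5.59. Of the 6 such genes that remove nitric oxide or S-nitrosothiols 2 were higher, with the globin Hba-a1 at 4.05, and 1 was lower, Txn1 at -2.49.

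Vascular markers give the setting of Nos3, and macrophage markers that of Nos2. Of the 7 brain endothelium markers with a value on every array 4 were called higher and 0 lower, with Cldn5 at a median of 5.18, Pecam1 at -0.22 and Cldn5 brightest in Cy5. Flt1, brightest of the whole list, lacked a value on 2 arrays. Of the 6 such markers of vascular smooth muscle and pericytes 2 were higher and 3 lower, with Acta2 brightest in Cy5. Of the 6 macrophage markers found 0 were higher and 4 lower, with Msr1 at least 16.3-fold lower, well above background in Cy5 on 7 arrays, and Adgre1 brightest in Cy5. Mrc1 went the other way, at least 2.77-fold higher in Cy5, and was well above background in Cy5 on 9 arrays and in Cy3 on 2. The part of these cells in the ratios of Nos3 and Nos2 was not tested.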

How the data were processed

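Hemibrain RNA of 10 mice was measured in Cy5 against a second RNA in Cy3. Per the file headers, processed signals are an intensity, background-subtracted and dye-normalized by Feature Extraction 10.10.1.1, and the software's log ratio is log10. The deposited table by the authors is log2, and on every array 100% of its values for probes on 1 spot lay within 0.001 of the log2 ratio of processed signals. Spots that the software marked as non-uniform or as deviating from their copies were left out, and spots of a probe were averaged. Of 41174 non-control probes, 27198 (66.1%) matched a gene name. A gene is represented by the probe with the highest mean of both channels. A probe is above background where the flag holds for at least 0.5 of its spots. Bounds set the mean log2 signal of the bright channel, after loess and Aquantile scaling, against a floor, the lowest flagged signal of the dim channel on each array. Python 3.11.15, numpy 2.4.6, pandas 2.3.3 and scipy 1.17.1 gave the values. R 4.3.3 with limma 3.58.1 compared the slides, with Benjamini-Hochberg adjustment over all probes, a threshold of 0.05, and was tested on simulated data.

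The members and lists were chosen with earlier results of these data known. The rule for named genes took the members with all their probes, in each pathway list at least the genes with the highest and lowest median, in marker lists the gene brightest in Cy5 and those never above background, and the 5 genes most like Nos1 on 10 and on 9 arrays. The text leaves out 2 members and some list genes that the rule names. Other list genes named, such as Kdm5d, were chosen after their values were seen. The alternatives were loess with a span of 0.3, median centring, normexp with an offset of 50 on median signals (mean signals were not used), background subtraction with a floor of 0.5 and the same offset (both followed by loess), the deposited table, all probes, a fold of 1.5 and leaving out arrays. A planned comparison of the synthase proteins was not run because no protein sequences were available.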

Additional observations from a re-analysis of the deposited data

Results flagged for a closer look

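Of 35 series of array values tested, 7 had an array far from the others, with a gap to its nearest neighbour, as a share of the whole range, above Dixon's critical value for 10 samples. Chance gives this in about 1 in 20 groups. On the dim array C10-434 there were 5 of the 7. The share of probes well above background there was 49.8% in Cy5 (68.2% to 76.9% on the others) and 61.9% in Cy3 (70.3% to 79.1%). Nos2 had a measured log2 ratio of 0.06 there (-1.42 to -0.74 on the others), but it was above background in neither channel on that array and in Cy5 on 2 of the 10. The median of the neuron markers was 6.35 (5.46 to 5.81; over the 7 markers with a value on every array 7.24, against 5.81 to 6.62), and that of the oligodendrocyte markers 4.38 (4.95 to 5.49).

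On C10-413 the median of the cerebellar granule cell markers was 2.19, against 0.32 to 0.91 on the others. Zic1 has no value on that array, and over the 6 markers with a value on every array the median was 2.19, against 0.18 to 0.82. As a departure of each gene from its own median, the list stood at 0.51 there, against -0.35 to 0.35. Gabra6, which lies in the middle of these 6 by its median over arrays, had its highest measured ratio on C10-413, and it was well above background in Cy5 on 1 array and in Cy3 on 0, so no exact ratio is given. On C10-437 the median of the Nos1 interneuron markers was 1.72, against 2.63 to 3.56 on the others. This goes with a missing value, since Gad2 has none on that array: over the 5 markers with a value on every array the median on C10-437 was 1.72, within the 1.29 to 2.37 of all arrays. Why the other arrays differ was not tested.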

How the results depend on the processing

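The medians of the 9 member genes kept their sign under every alternative run, while the single value of Nos2 on C10-434 was -0.04 after median centring. Of these 153 medians, 140 moved by less than the spread over arrays and 13 by more, most of them after normexp or after background subtraction with a floor, each of which was followed by loess. This spread is narrower than the range from lowest to highest array. With loess Nos3 went from 1.37 to 1.63 and was among the 13, though its range was 0.61. Medians of single marker and pathway genes were not followed over the alternatives. The median of all genes rose by 0.16 with loess alone and by 0.14 with the floor and loess.

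The count of genes higher in Cy5 was 2 with loess (Nos3 and Ddah1), 2 with a fold of 1.5 (the same genes), 2 without C10-434 and 0 with normexp, where fewer of all genes were called higher as well. Leaving out each array in turn gave 1 to 2, with 2 without C10-434 and without C10-435, where Ddah1 was added. The count of lower genes was 1 with the mean over all probes, since the Prkg2 probes have opposite signs, and 2 under every other alternative, while the share of all genes called lower was 2.53% with normexp and 10.8% with the floor.

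With the flag for positive and significant signals, 7 genes were above background in Cy5 on every array, against 79.0% of all genes. Leaving out C10-434, an alternative chosen after seeing the data, gave 6, against 76.6%. The number of probes that differ between the slides was 0 with the floor (3119 at an unadjusted p under 0.05), 71 among probes well above background in Cy5, and 2692 with the Cy5 signal alone. Leaving out each array in turn gave 0 to 18, where fewer arrays were compared, and each array's removal lowered the count by over 1.5 times. By limma, 0 of the 9 described probes differed with the Cy5 signal alone, with adjusted p from 0.101 to 1.000.

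The range of Nos1 was 0.42 with normexp and 0.59 with the floor, both of which add an offset of 50 and then loess. With loess alone it was 1.75. An offset shrinks ratios of dim probes by construction, and other causes were not tested.

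Signal over background limits Nos1, Nos2 and the dimmer Prkg2 probe.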

Other observations

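Lists not described above had these counts. Counts cover genes with no missing array. Ass1, Itpr1, Ppp1r17 and Hba-a1 each stand in a marker list and in a pathway list. Of the 6 cerebellar granule cell markers 1 was called higher and 0 lower, with Etv1 brightest in Cy5 and Fat2 above background there on no array. Of the 6 Purkinje cell markers 2 were higher, with Itpr1 brightest, and of the 5 Nos1 interneuron markers 3 were higher, with Sst brightest. Of the 5 liver markers found 1 was higher, Ttr, which the choroid plexus of the brain also expresses, and Alb, Apoa1 and Otc were above background in Cy5 on no array. Of the 3 erythroid markers found 2 were higher, with Hba-a1 brightest. Of the 5 markers of female and male cells, Eif2s3y was higher and Xist lower, and the male gene Kdm5d, with a median of 0.07, was well above background in both channels on all 10 arrays.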
